A study of Mus musculus with 120 samples.

Results

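The liver carboxylesterases Ces1b, Ces1c, Ces1d, Ces1e, Ces1f, Ces1g, Ces2a, Ces2c, Ces2e and Ces3a were followed through the livers of 30 mouse strains. They were taken as all probe sets whose gene symbol was one of these 10 names or an older symbol of the same gene, and the family was selected on measured values, the low signals already seen for one of them in MSM and in B6-Chr8MSM against B6. Of the 10 listed genes, 7 had probe sets of their own, 9 in all out of 45037 in the table. No probe set was annotated to Ces1b or Ces2c, and the single probe set for Ces3a was annotated to Ces3b as well. The groups were MSM/Ms (MSM), an inbred strain from Japanese wild mice; B6-Chr8MSM, which carries chromosome 8 of MSM on a C57BL/6J background; 27 other strains, each with another MSM chromosome, the centromeric (C) or telomeric (T) part of one, or the MSM mitochondria on that background; and C57BL/6J (B6). All animals were males aged 10 weeks, fasted for 4 h before collection, with 2 males in a strain and 2 arrays for each male. Since B6-Chr8MSM receives chromosome 8 as a unit, every carboxylesterase gene on it comes from MSM at once in that strain.

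Carboxylesterases are serine hydrolases that cut esters, thioesters and amides into an acid and an alcohol or amine. Most are held in the lumen of the endoplasmic reticulum of hepatocytes, where they activate or inactivate ester drugs and pesticides and hydrolyse stored or newly made lipids. In the mouse the family has expanded by tandem duplication into clusters on chromosome 8, a Ces1 cluster and a cluster that holds the Ces2, Ces3 and Ces4 genes, so that single human enzymes have several mouse relatives.

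The reference promoters of 5 members are shown because they cover the 4 genes farthest below B6 in MSM in residual spread (defined with the values) and 1 neighbour, Ces1c, whose signal was nearly level. Each runs from 250 bases before to 50 bases after the annotated gene start, 5′ to 3′ on the strand of the gene, in build GRCm38.p6 (RefSeq). Capitals mark matches on either strand to 7 short elements known from liver promoters: the TATA element TATAAA, the CCAAT element, the nuclear receptor hexamers AGGTCA and AGTTCA, the HNF1 core GTTAAT, the E-box CACGTG and the C/EBP palindrome TTGCGCAA.
Ces2a, chr8:104733753-104734052, plus strand: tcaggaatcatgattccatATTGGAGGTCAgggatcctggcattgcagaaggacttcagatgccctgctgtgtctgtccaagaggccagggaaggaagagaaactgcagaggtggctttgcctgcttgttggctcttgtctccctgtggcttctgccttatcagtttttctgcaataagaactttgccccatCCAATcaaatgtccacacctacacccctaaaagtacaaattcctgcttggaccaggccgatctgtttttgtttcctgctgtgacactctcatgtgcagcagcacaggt
Ces2e, chr8:104926010-104926309, plus strand: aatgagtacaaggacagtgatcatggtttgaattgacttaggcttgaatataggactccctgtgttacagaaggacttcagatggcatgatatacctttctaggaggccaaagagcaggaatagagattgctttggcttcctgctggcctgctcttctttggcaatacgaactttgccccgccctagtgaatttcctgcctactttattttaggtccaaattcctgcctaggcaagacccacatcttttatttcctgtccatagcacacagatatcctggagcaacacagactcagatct
Ces1g, chr8:93337160-93337459, minus strand: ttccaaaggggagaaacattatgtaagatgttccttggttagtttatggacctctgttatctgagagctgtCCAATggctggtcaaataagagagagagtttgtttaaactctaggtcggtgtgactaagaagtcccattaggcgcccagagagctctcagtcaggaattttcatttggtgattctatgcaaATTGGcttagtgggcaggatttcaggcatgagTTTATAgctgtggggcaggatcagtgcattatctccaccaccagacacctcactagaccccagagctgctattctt
Ces1e, chr8:93229570-93229869, minus strand: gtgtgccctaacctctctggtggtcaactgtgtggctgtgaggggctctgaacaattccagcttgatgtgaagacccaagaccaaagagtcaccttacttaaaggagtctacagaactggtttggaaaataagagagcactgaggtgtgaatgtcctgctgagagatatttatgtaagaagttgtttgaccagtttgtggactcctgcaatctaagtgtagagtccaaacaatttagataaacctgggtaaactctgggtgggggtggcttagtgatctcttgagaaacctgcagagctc
Ces1c, chr8:93131234-93131533, minus strand: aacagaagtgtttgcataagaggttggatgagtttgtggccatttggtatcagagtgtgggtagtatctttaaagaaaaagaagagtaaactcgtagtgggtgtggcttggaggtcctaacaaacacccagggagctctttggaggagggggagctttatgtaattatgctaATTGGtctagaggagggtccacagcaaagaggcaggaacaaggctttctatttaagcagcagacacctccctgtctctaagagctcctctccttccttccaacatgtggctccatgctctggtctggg
RefSeq promoters were at hand for 7 of the 10 genes, Ces1b with 2 starts, which makes 8 sequences. In Ces2a, CCAAT lay at -58 to -54 and, on the opposite strand, at -231 to -227, where it abutted AGGTCA at -226 to -221. Ces1g held CCAAT at -179 to -175, its reverse at -58 to -54, and TATAAA on the opposite strand at -26 to -21. Ces1c held a single reversed CCAAT at -78 to -74, and neither Ces2e nor Ces1e held any of the 7 motifs in this window. CCAAT occurred in 6 of the 8 sequences and in 37.4% of all 32851 promoters of 300 bases. The 2 Ces1b windows overlap and hold the same CCAAT and AGTTCA sites, which are therefore counted in both. The members are tandem duplicates, so the sequences are not independent. Among all promoters TATAAA occurred in 13.6%, AGGTCA in 16.3%, AGTTCA in 14%, GTTAAT in 7.1%, CACGTG in 7.15% and TTGCGCAA in 0.183%, and no matches overlapped in the 8 sequences. The reference is the B6 sequence, and the MSM alleles were not analysed here.

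The deposited values are log2 signals with little spread between males, and that spread was very unequal among probe sets. The residual standard deviation (SD) between males of a strain was 9.59e-05 for Ces1c and 0.0183 for Ces2a, with a median of 1.73e-05 over all probe sets. How the values were made is not given in the sources used here, so a difference on this scale was not read as a log2 fold change and its size was not compared between genes. Differences are given on the log2 signal scale, in residual SDs, or both. A residual SD is the spread between the 2 males of a strain estimated for that probe set over all 30 strains. Where only residual SDs are given, the log2 difference can be very small, such as 1.87e-05 for the called gene Irx6 in MSM. Array medians lay between 7.416 and 7.417, and 9 of 9 measured hepatocyte markers lay above the median of the table. In 7 of the 9 carboxylesterase probe sets the lowest male outside MSM and B6-Chr8MSM was male 1 of B6-Chr9MSM. Among the males outside MSM, that one also stood farthest from their median over the whole table, with a median distance of 1.48 residual SDs against 0.859 for the next male, and the values for the other strains are given with and without it.

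Ces2a, an esterase of the Ces2 branch that cleaves drugs and acylglycerols, had the largest difference of the family in residual SDs. Its signals were 8.7385 and 8.7709 in the 2 MSM males and 8.8499 and 8.8525 in the B6-Chr8MSM males, against 9.3061 and 9.2784 in the B6 males. The 54 males of the other strains ran from 9.2226 through a median of 9.2876 to 9.3240. All 4 males with MSM chromosome 8 thus lay below the other 56 males, with no overlap. By single array, MSM lay between 8.73 and 8.78 and B6-Chr8MSM between 8.84 and 8.86, against 9.27 to 9.31 in B6. MSM minus B6 was -0.538 ± 0.0181 (SE, n = 2 males each), or -29.4 residual SDs. B6-Chr8MSM minus B6 was -0.441 ± 0.0181, or -24.1 residual SDs, which is 82.0% of the MSM difference. The B6-Chr8MSM males were above both MSM males, by 0.0965 on average.

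Ces2e, another enzyme of the Ces2 branch, had signals of 9.2104 and 9.2109 in MSM and 9.2090 and 9.2060 in B6-Chr8MSM, against 9.2245 and 9.2236 in B6. The other strains ran from 9.2088 through 9.2208 to 9.2271. The 4 males with MSM chromosome 8 lay below both B6 males, but the higher MSM male still had 2 males of other strains below it and the higher B6-Chr8MSM male had 1. The difference was -0.0134 ± 0.0030 in MSM (-4.39 residual SDs) and -0.0166 ± 0.0030 in B6-Chr8MSM (-5.43 residual SDs, 124% of the MSM difference).

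Ces1g, an endoplasmic reticulum lipid hydrolase whose loss in mice raises liver fat and very-low-density lipoprotein output, was the other gene with a wide gap. It had 7.8846 and 7.9083 in MSM and 7.8620 and 7.8234 in B6-Chr8MSM, against 8.1040 and 8.1050 in B6. The remaining 54 males spanned 8.0217 to 8.1431 with a median of 8.0924, so none reached down to the MSM or B6-Chr8MSM males. MSM minus B6 was -0.208 ± 0.0180 (-11.4 residual SDs) and B6-Chr8MSM minus B6 was -0.262 ± 0.0180 (-14.4 residual SDs, 126% of the MSM difference). Here, unlike Ces2a, both B6-Chr8MSM males were below both MSM males.

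Ces1e, the protein egasyn that anchors beta-glucuronidase in the endoplasmic reticulum, had 9.0405 and 9.0393 in MSM and 9.0514 and 9.0464 in B6-Chr8MSM, against 9.0582 and 9.0565 in B6. The other strains ran from 9.0458 through 9.0556 to 9.0644. The MSM males were the lowest of all 60, while the higher B6-Chr8MSM male had 4 males of other strains or B6 below it. The difference was -0.0174 ± 0.0032 in MSM (-5.43 residual SDs) and -0.0084 ± 0.0032 in B6-Chr8MSM (-2.63 residual SDs, 48.4% of the MSM difference).

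**Figure D1:**
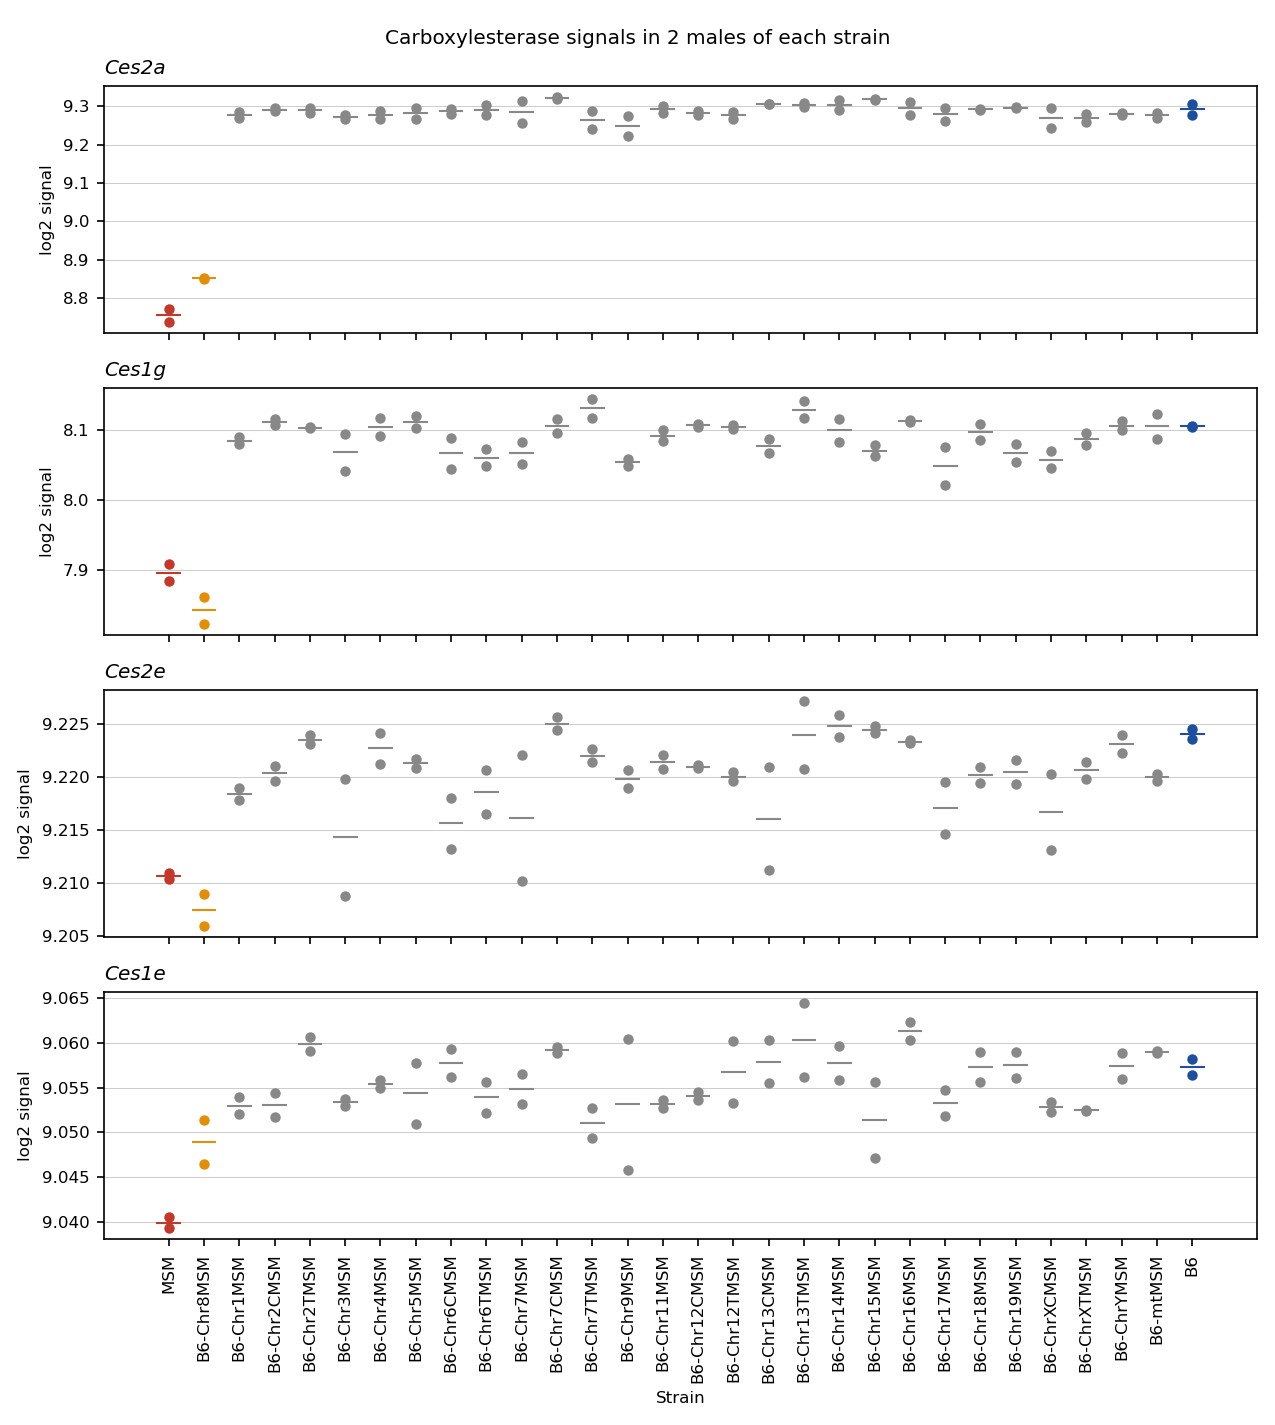
Log2 signal (vertical axes) of Ces2a, Ces1g, Ces2e and Ces1e in each strain (horizontal axis). Points are males, each the mean of 2 arrays, and short lines are strain means, in red for MSM, orange for B6-Chr8MSM, grey for the 27 other strains and blue for B6. For Ces2a and Ces1g the 4 males of MSM and B6-Chr8MSM are separate from the other 56, whereas for Ces2e and Ces1e single males of other strains reach their range.

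Ces1f, a triacylglycerol hydrolase close to Ces1d, ran the other way. It had 11.7317 and 11.7315 in MSM and 11.7333 and 11.7330 in B6-Chr8MSM, against 11.7312 and 11.7314 in B6. Both B6-Chr8MSM males lay above the highest of the 54 other males, 11.7321. The difference was 3.44 residual SDs in B6-Chr8MSM and 0.60 in MSM, and neither was called, although the B6-Chr8MSM difference was called higher when the mean of the 27 other strains took the place of B6. Its probe set carries the suffix _s_at, which marks probes that can match several transcripts, and such a probe set may read more than 1 member of the cluster.

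Ces1d, the triacylglycerol hydrolase that mobilises stored lipid for very-low-density lipoprotein assembly, was read by 3 probe sets, and none of them was called. Whether any of the 3 also reads other members of the cluster was not tested. For the probe set with the suffix _at the signals were 11.5216 and 11.5226 in MSM and 11.5243 and 11.5210 in B6-Chr8MSM, against 11.5245 and 11.5244 in B6. For the one with _a_at they were 11.1010 and 11.1014 in MSM and 11.1039 and 11.0987 in B6-Chr8MSM, against 11.1042 and 11.1045 in B6, and for the one with _x_at they were 8.8922 and 8.8927 in MSM and 8.8929 and 8.8914 in B6-Chr8MSM, against 8.8935 and 8.8931 in B6. All MSM and B6-Chr8MSM males lay below both B6 males in all 3 probe sets, by -1.56 to -2.00 residual SDs in MSM and by -1.34 to -2.05 in B6-Chr8MSM. In B6-Chr8MSM male 2 carried most of this: without it the difference of the _at probe set was -0.00014, and without male 1 it was -0.0034. Most of the other strains also lay below B6. In the _a_at and _x_at probe sets 25 were below and 2 above, and in the _at probe set 22 were below and 5 above. The lowest, B6-Chr9MSM, lay farther below B6 than MSM or B6-Chr8MSM, at -2.68 (_a_at), -2.81 (_x_at) and -2.67 (_at) residual SDs. A position below B6 was therefore not particular to the strains with MSM chromosome 8. Under quantile normalization the MSM difference of the _a_at probe set changed sign to 0.00086 and that of the _x_at probe set to 0.0023, which was then called higher. In the opposite direction, the _a_at probe set was called lower in MSM in the fit on MSM and B6 alone, and both it and the _at probe set were called lower in MSM when single arrays were fitted with the male as a random block.

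Ces1c, the esterase that mouse liver secretes into plasma, was called in neither strain. Its signals were 12.79654 and 12.79657 in MSM and 12.79677 and 12.79683 in B6-Chr8MSM, against 12.79670 and 12.79670 in B6. MSM lay -1.47 residual SDs from B6 and B6-Chr8MSM 1.04 residual SDs, both within the range of the 27 other strains (-1.87 to 1.87). The probe set shared by Ces3a and Ces3b, which is kept out of all counts, had 13.0583 and 13.0583 in MSM and 13.0582 and 13.0580 in B6-Chr8MSM, against 13.0583 and 13.0582 in B6.

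With limma and an adjusted p below 0.05 as the call, 4 of the 9 probe sets were called lower in MSM (Ces1e, Ces1g, Ces2a and Ces2e) and 0 higher, beside 6.11% of all probe sets called lower and 10.4% called higher. In B6-Chr8MSM 3 were called lower (Ces1g, Ces2a and Ces2e) and 0 higher, beside 0.109% lower and 0.0733% higher. Counted with 1 probe set a gene the shares of all 18193 genes were 6.84% lower and 12% higher in MSM, and 0.137% lower and 0.0715% higher in B6-Chr8MSM. These comparisons chose the family, so the counts describe it and nothing is read from them. Ces2e lost its call in B6-Chr8MSM when B6 male 1, B6 male 2 or B6-Chr8MSM male 2 was left out. Quantile normalization changed the background split in MSM to 995 lower and 38403 higher, against 2753 lower and 4675 higher as deposited, and that in B6-Chr8MSM to 26 lower and 110 higher, against 49 lower and 33 higher as deposited. The 4 genes called lower in MSM and the 3 called lower in B6-Chr8MSM were called lower under it too. The median difference over the 9 probe sets was -2.00 residual SDs in MSM and -2.05 in B6-Chr8MSM, beside 0.77 and 0.15 over all probe sets. Where a transcript comes from MSM chromosome 8, a lower transcript level and weaker binding of its allele to probes designed on another sequence cannot be told apart, nor, in whole liver, can fewer expressing cells and less RNA per cell.

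**Figure D2:**
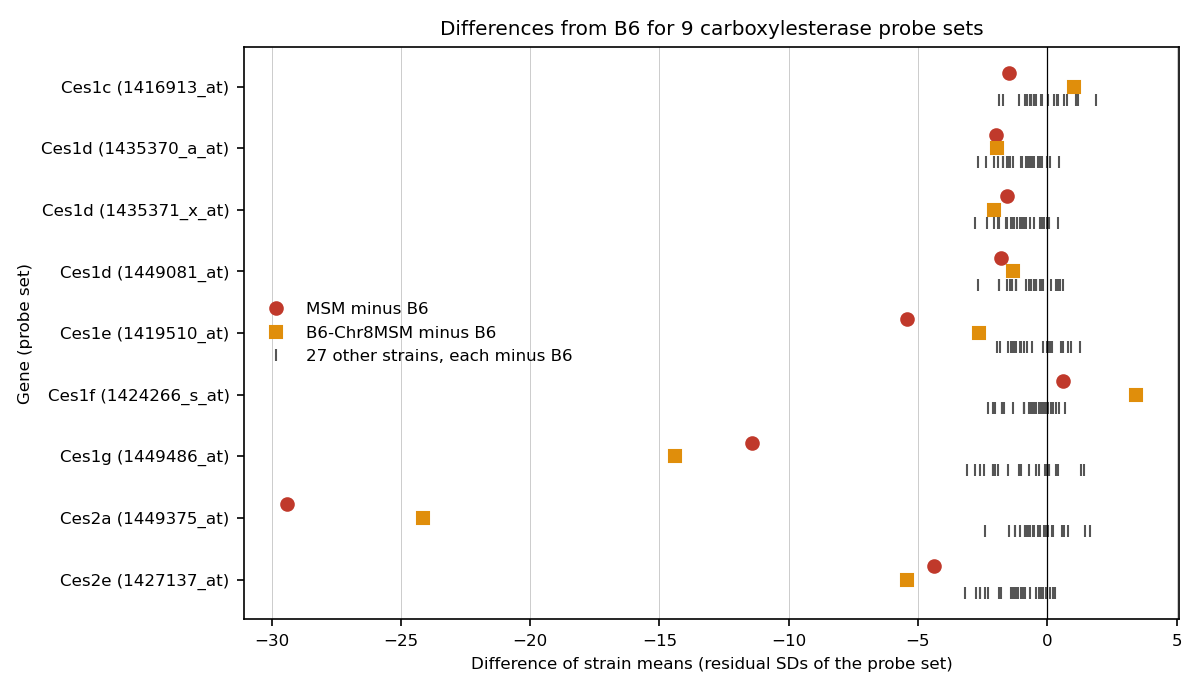
Difference of each strain from B6 for the 9 carboxylesterase probe sets, in residual SDs (horizontal axis). Red circles are MSM, orange squares B6-Chr8MSM and grey ticks the 27 other strains. Ces2a at -29.4 and -24.1 and Ces1g at -11.4 and -14.4 lie far to the left of every tick, and Ces1f in B6-Chr8MSM is the only point to the right of its ticks.

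The 27 other strains, all of which carry the B6 alleles on chromosome 8, were not used in the choice of genes. The 2 B6 males they are compared with were used in it. None of the 243 comparisons of a carboxylesterase probe set with B6 passed limma's adjusted p of 0.05, beside 0.205% over all probe sets and strains. An unadjusted p below 0.05 was reached in 24 of the 243 (9.88%), beside 6.70% over all probe sets, and the difference was negative in all 24. Over the 243 comparisons 188 were negative (77.4%), beside 46.2% over all probe sets. All of them subtract the same 2 B6 males, which ranked between the 3rd and the 12th place of 30 strains in these probe sets. They are therefore not independent of each other or of the choice. Choosing a family for low signals against B6 by itself favours negative differences here, so nothing is read from their share. B6-Chr9MSM supplied 6 of the 24. Without its male 1, which also changes the estimated spread, 0 were called, 25 of the 243 had an unadjusted p below 0.05 (10.3%, beside 6.84% over all probe sets), 1 of them in B6-Chr9MSM, and 76.5% were negative, beside 45.9% over all probe sets. No carboxylesterase probe set was called either when the mean of the other strains took the place of B6.

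With both males, B6-Chr9MSM had the lowest median over the 9 probe sets, -2.39 residual SDs from B6, with 9 of 9 below B6 and 6 at an unadjusted p below 0.05. This rested on male 1. Set singly against the B6 mean, male 1 had a median of -3.81 residual SDs with 9 of 9 below, and male 2 had -1.08 with 7 of 9 below, Ces1e and Ces1f lying above B6 in it. For Ces2a male 1 had 9.2226 and male 2 had 9.2744, whereas for Ces1g they were close together at 8.0487 and 8.0579. In the fit without male 1, the lowest strain was B6-Chr3MSM, with a median of -2.00 residual SDs, followed by B6-Chr17MSM with -1.84 and B6-ChrXCMSM with -1.71, while B6-Chr9MSM had -1.10. With all males included these 3 strains had -1.87, -1.70 and -1.57. In B6-Chr3MSM male 1 also had the lower median against the B6 mean, -2.96 with 8 of 9 below, and male 2 had -1.20 with 9 of 9 below. At the other end B6-mtMSM (0.02), B6-Chr16MSM (0.16) and B6-Chr7CMSM (0.30) were the only strains with a median above B6. B6-Chr7CMSM had the highest strain mean of both Ces2a (9.3221) and Ces2e (9.2250). The whole-chromosome strain B6-Chr7MSM had 9.2221 and 9.2102 for Ces2e, against 9.2245 and 9.2236 in B6, so that without its male 2 the difference was -0.0020 and not -0.0079.

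**Figure D3:**
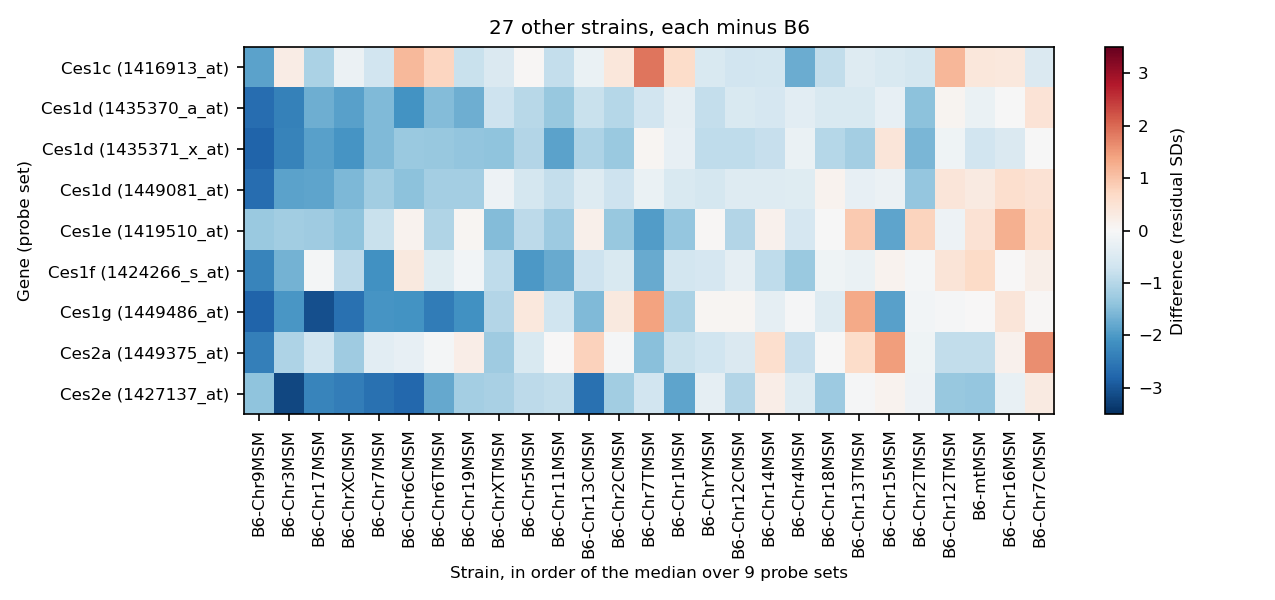
Differences from B6, in residual SDs (colour, blue lower and red higher), of the 9 carboxylesterase probe sets (rows) in the 27 other strains (columns, ordered by the median over the 9). The columns at the left, led by B6-Chr9MSM and B6-Chr3MSM, are blue in most rows. Male 1 had the lower median in B6-Chr9MSM (-3.81 against -1.08) and in B6-Chr3MSM (-2.96 against -1.20), whose male 2 was below B6 in 9 of 9 rows. Male 2 had the lower median in B6-Chr17MSM (-1.99 against -1.57) and B6-Chr7MSM (-1.80 against -1.19). The deepest single cells are Ces2e in B6-Chr3MSM at -3.20 (-4.99 in male 1 and -1.40 in male 2) and Ces1g in B6-Chr17MSM at -3.09 (-1.63 in male 1 and -4.55 in male 2).

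Over the 28 strains without MSM and B6-Chr8MSM, limma's moderated F test called 1 of the 9 probe sets, that of Ces1g (F = 3.37, adjusted p = 0.0338), beside 3.38% of all probe sets. B6 is among the 28, so this test is not wholly free of the choice of genes. Ces1g strain means ran from 8.1302 in B6-Chr7TMSM and 8.1285 in B6-Chr13TMSM down to 8.0533 in B6-Chr9MSM and 8.0483 in B6-Chr17MSM. The B6-Chr7TMSM males had 8.1431 and 8.1172 and the B6-Chr13TMSM males 8.1405 and 8.1165, so these neighbours in the order overlapped. The B6-Chr17MSM males had 8.0749 and 8.0217 and spanned both B6-Chr9MSM males. The call rested on single animals: the adjusted p was 0.0576 without male 1 of B6-Chr9MSM, 0.0510 without B6 male 1 and 0.0504 without B6 male 2. Ces2e had an adjusted p of 0.331, Ces1e of 0.466 and Ces2a of 0.519, and the other 5 probe sets lay between 0.557 and 0.617.

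Within the family the strain means moved together to different degrees. The correlations that follow are over strain means, which share arrays and chip processing, and are given as a description. Over 30 strains Ces2a and Ces1g had a Pearson correlation of 0.91, and over the 28 strains without MSM and B6-Chr8MSM it was 0.18, or 0.08 with male 1 of B6-Chr9MSM left out. Over the same 28 strains Ces1g correlated at 0.71 with the _at probe set of Ces1d and at 0.66 with Ces2e, and Ces2a correlated at 0.46 with Ces1f and at 0.41 with Ces2e. Without that male these were 0.69, 0.65, 0.30 and 0.43. The 3 Ces1d probe sets correlated at 0.82 to 0.95 with each other (0.78 to 0.93 without it), and Ces1c at -0.19 to 0.36 with the rest (-0.26 to 0.24 without it).

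**Figure D4:**
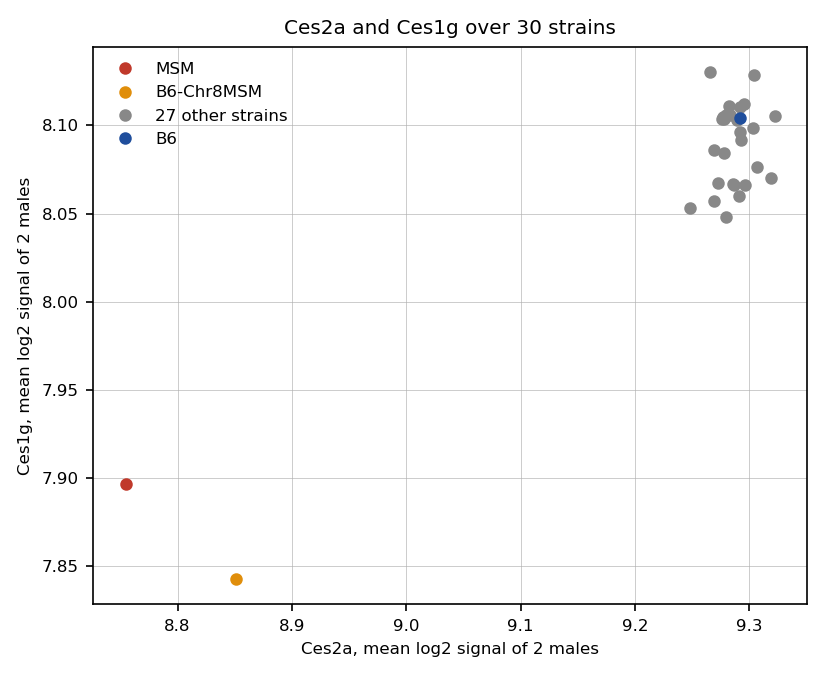
Strain means of Ces2a (horizontal axis) and Ces1g (vertical axis), each the mean log2 signal of 2 males, for MSM (red), B6-Chr8MSM (orange), the 27 other strains (grey) and B6 (blue). MSM and B6-Chr8MSM lie apart at the lower left with their order reversed between the axes, and the other 28 strains form a cloud at the upper right in which the correlation is 0.18 (0.08 without male 1 of B6-Chr9MSM).

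The genes whose strain means were most like those of Ces2a over 30 strains all lay on chromosome 8. MSM and B6-Chr8MSM, the strains used in the choice, dominate this correlation because Ces2a lies far from B6 in both. Genes shifted in both strains therefore come first by construction, and nothing is read from their place. They were Tm2d2 (Pearson 0.952), Aga (0.934), Klkb1 (0.928), Nae1 (0.915) and 2810004N23Rik (0.913), and the most opposite were Myom2 (-0.989), Abcc12 (-0.975), Mcf2l (-0.971), 2610005L07Rik (-0.969) and Cep44 (-0.949). Klkb1 encodes plasma prekallikrein and Aga the lysosomal enzyme aspartylglucosaminidase. Over the 28 strains without MSM and B6-Chr8MSM the order was a different one. The closest genes were then Slc22a30 (0.706), Sh3bgrl2 (0.678), Ulk2 (0.667), the growth hormone receptor Ghr (0.667) and the glyoxalase Glo1 (0.658), and the most opposite were Fgr (-0.813), Cxcl16 (-0.723), Lmna (-0.702), Cdk14 (-0.694) and Pck2 (-0.693). None of these 10 lay on chromosome 8. The order rested largely on 1 animal. Without male 1 of B6-Chr9MSM the 5 highest fell between 0.521 and 0.613 and the 5 most opposite between -0.825 and -0.536, and 0 of the 5 highest and 1 of the 5 most opposite were still among the first 5.

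No gene beside the clusters was called lower by limma in either strain. Over all genes 6.84% were called lower and 12% higher in MSM, and 0.137% lower and 0.0715% higher in B6-Chr8MSM. For so few flanking genes, the absence of a lower call is near these shares. Of the 10 measured genes that flank the Ces1 cluster, 1 was lower at an unadjusted p below 0.05 in MSM and 1 in B6-Chr8MSM, and Irx6 (3.13 residual SDs, adjusted p = 0.032) and Ogfod1 (3.07, adjusted p = 0.031) were called higher in MSM. Of the 10 that flank the Ces2 to Ces4 cluster, 1 was lower at that unadjusted level in MSM and 2 in B6-Chr8MSM, and Fbxl8 was higher in MSM (4.69 residual SDs, adjusted p = 0.001) and in B6-Chr8MSM (6.19, adjusted p = 0.001). Over all 932 measured genes of chromosome 8, 59 were called lower (6.33%) and 119 higher (12.8%) in MSM. In B6-Chr8MSM 24 were called lower (2.58%) and 13 higher (1.39%). Of the 6 other carboxylesterases with probe sets of their own (Ces1h, Ces2b, Ces2f, Ces2g, Ces4a and Ces5a), 0 were called lower, with 0 lower at an unadjusted p below 0.05 in either strain, and Ces2f was called higher in MSM (3.10 residual SDs, adjusted p = 0.035) but not in B6-Chr8MSM (2.97, adjusted p = 0.42). Ces2b, which lies between Ces2a and Ces2e, was 1.23 residual SDs above B6 in MSM (adjusted p = 0.42) and 1.05 above in B6-Chr8MSM (adjusted p = 0.83). The probe sets of Ces2b and Ces2f were dim, with mean signals of 7.289 and 6.895 against a table median of 7.417. The called Ces2f difference was only 1.80e-05 on the log2 signal scale. Among the flanking genes, Irx6, Capns2, Gnao1, Rrad and Slc6a2 had SEs of only 6.09e-06 to 7.74e-06. Whether the probe sets of Ces2b, Ces2f and the flanking genes detect their transcripts in liver was not tested.

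**Figure D5:**
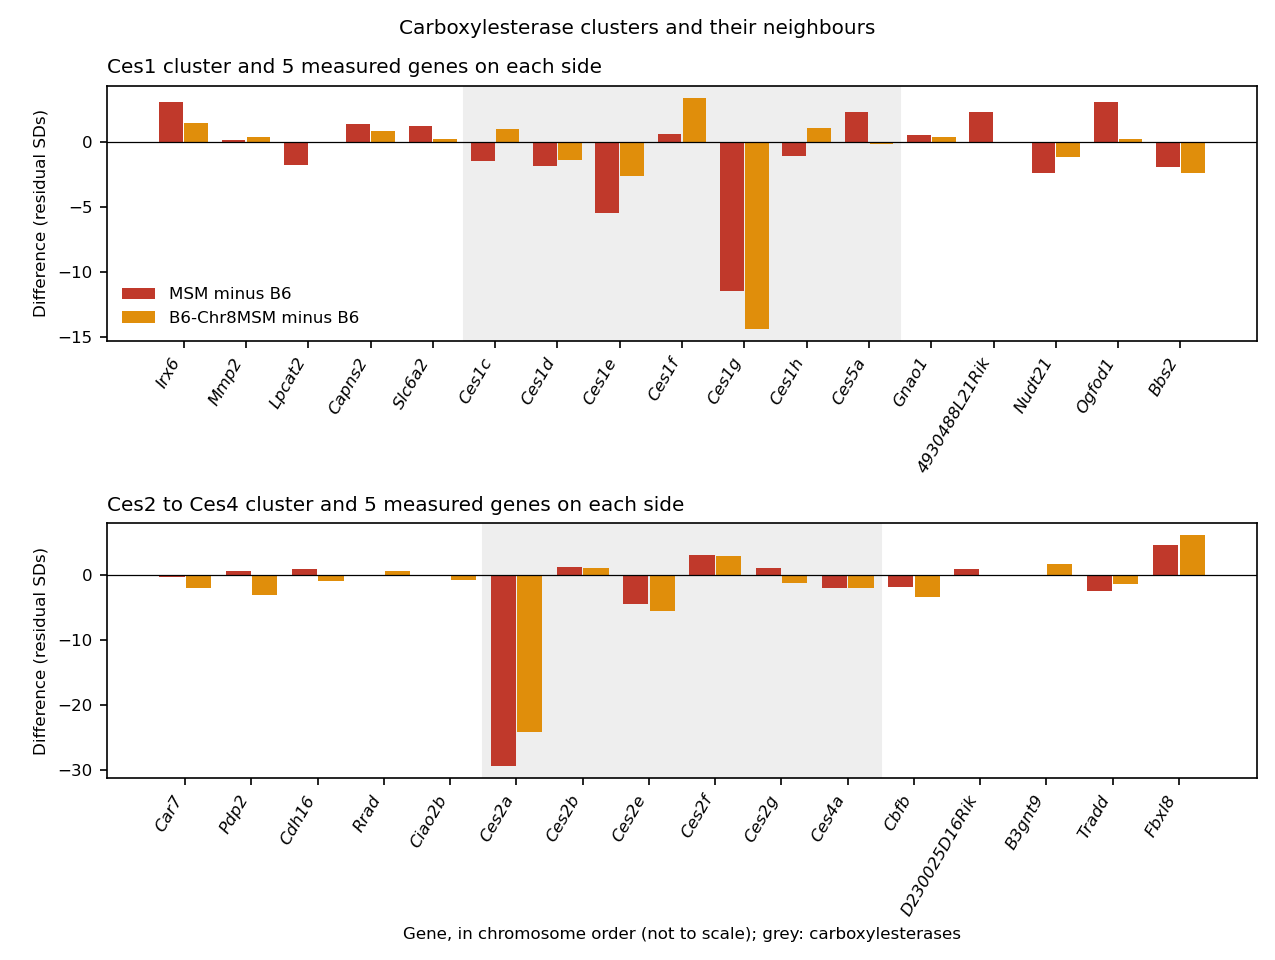
Differences from B6 in residual SDs (vertical axes) for the measured genes of the Ces1 cluster and of the Ces2 to Ces4 cluster and the 5 measured genes on each side, in chromosome order and not to scale, with 1 probe set a gene. Red bars are MSM, orange bars B6-Chr8MSM and grey shading marks the carboxylesterases. The long bars belong to Ces1g and Ces2a, with genes of short bars directly beside them. The probe sets of Ces2b and Ces2f lie below the median signal of the table. Whether they and the flanking probe sets detect their transcripts was not tested.

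Other genes that bear on the same chemistry were called in MSM, and none was called in B6-Chr8MSM; whether the 2 strains differ in them was not tested. Over all genes 6.84% were called lower and 12% higher in MSM, and 0.137% lower and 0.0715% higher in B6-Chr8MSM. Each count below is to be read against these shares. In lists of this size, 0 calls in B6-Chr8MSM are near the share over all genes. Among 20 measured ester hydrolases and lipases of other families, 4 were called lower and 1 higher in MSM, and 0 were called in B6-Chr8MSM, where 2 were lower and 1 higher at an unadjusted p below 0.05. The arylacetamide deacetylase Aadac, an esterase of the endoplasmic reticulum, was at -10.5 residual SDs in MSM. The paraoxonase Pon3 was at -8.14, the epoxide hydrolase Ephx2 at -7.20 and Faah at -3.26. The adipose triglyceride lipase Pnpla2, named in addition to these 4, was the 1 called higher, at 2.98. Of 16 measured regulators of carboxylesterase genes, 2 were called higher in MSM and 0 in B6-Chr8MSM, with 0 at an unadjusted p below 0.05 there, a share in MSM near that over all genes. These were the xenobiotic receptor Nr1i2 (PXR), at 10.4 residual SDs in MSM and 1.78 in B6-Chr8MSM (adjusted p = 0.68), and the aryl hydrocarbon receptor Ahr, at 3.03 in MSM and -1.23 in B6-Chr8MSM. Of 15 genes of lipoprotein assembly and triglyceride synthesis, Dgat1 was called higher (6.66) and Gpam lower (-3.01) in MSM, and 0 were called in B6-Chr8MSM, where 2 were lower and 1 higher at an unadjusted p below 0.05.

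Markers of the cell types in whole liver were compared over the same contrasts, and their counts are to be read against the same shares over all genes. The mean log2 signal of 9 hepatocyte markers was 13.50 in every male of MSM, B6-Chr8MSM, the other strains and B6, with 1 of the 9 (Fgb) called lower in MSM and 0 in B6-Chr8MSM. At an unadjusted p below 0.05, 2 of the 9 were lower in MSM and 0 in B6-Chr8MSM. The median over the 9 was -0.91 residual SDs in MSM and 0.74 in B6-Chr8MSM. Some of these genes hardly vary on the deposited scale (Alb by -5.65e-07 in MSM), so an even mean cannot show equal hepatocyte content. Of 8 Kupffer cell markers, Csf1r, Clec4f and Vsig4 were called lower in MSM, with a mean over the list of 8.44 in both MSM males, 8.45 and 8.46 in the B6-Chr8MSM males and 8.45 in both B6 males. At an unadjusted p below 0.05, 6 of the 8 were lower in MSM, and the median over the 8 was -2.22 residual SDs. In B6-Chr8MSM 0 of the 8 were called and 0 reached an unadjusted p below 0.05, with a median of 0.34. Of 6 endothelial markers, Lyve1 was called higher in MSM (3.94 residual SDs) and was not called in B6-Chr8MSM (2.06, adjusted p = 0.61), and Clec4g, which itself lies on chromosome 8, was called lower in MSM (-3.46) and in B6-Chr8MSM (-6.12). The part of these cell types in the carboxylesterase values was not tested. The erythroid gene Alas2 was lower in MSM (-6.19) and was not called in B6-Chr8MSM (-0.41, adjusted p = 0.95). Among the stellate, cholangiocyte, lymphocyte, neutrophil, adipocyte and other tissue markers, the stellate gene Lrat was called lower in MSM (-4.30), and Rgs5, Epcam, Krt7, Cxcr2 and Myh4 were called higher there (3.18 to 4.23), while none was called in B6-Chr8MSM and 1, the cholangiocyte gene Krt7, was higher at an unadjusted p below 0.05 (4.06 residual SDs).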

How the data were processed

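Liver RNA of 60 males was measured on 120 arrays, 2 for each male. The values deposited by the authors are log2 signals of 45037 probe sets. Their log base was read from the range (6.34 to 14.82), and how probes were summarised and normalized is not given in the sources used here. Of the probe sets, 34945 had a single gene symbol in the platform annotation, 932 several and 9160 none.

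Values of the 2 arrays from each male were averaged, then limma 3.58.1 (R 4.3.3) was fitted with a mean for each strain (30 residual degrees of freedom), with no filter and no pseudocount. Contrasts against B6 were adjusted by Benjamini-Hochberg over all probe sets, and a moderated F test covered 28 strains. The method was tested on simulated data. The animal number in the labels is read here as naming a male, and p-values measure the spread between these samples, whose number limits the precision.

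The members, gene lists and naming rule were chosen with earlier results of these data known. Named genes were all member probe sets, up to 4 called genes of each list by absolute t, the 5 most and 5 least like Ces2a over strain means, and 5 measured genes on each side of each cluster in GRCm38.p6 order. Alternatives were quantile normalization, a filter on dim probe sets, 1 probe set a gene, trended and robust moderation, single arrays with male as a random block, other references, and leaving out each male of MSM, B6-Chr8MSM and B6. Leaving out male 1 of B6-Chr9MSM, or that strain, and setting single males against the B6 mean were added after seeing the data.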

Additional observations from a re-analysis of the deposited data

Results flagged for a closer look

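Ces1c stood on opposite sides of B6 in the strains that carry MSM chromosome 8: both MSM males lay below both B6 males and both B6-Chr8MSM males lay above them. B6-Chr8MSM exceeded MSM by 0.000241 on the log2 signal scale, or 2.51 residual SDs. This difference between the strains was not tested. Against B6, MSM lay at -1.47 and B6-Chr8MSM at 1.04 residual SDs, both within the range of the other strains (-1.87 to 1.87). The B6 males were close together, at 12.796695 and 12.796702. Under the alternatives the difference from B6 ran from -0.000159 to 0 in MSM and from 0 to 0.000131 in B6-Chr8MSM. The opposite sides were therefore not kept under every processing.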

How the results depend on the processing

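The MSM and B6-Chr8MSM differences of Ces2a, Ces1g, Ces2e and Ces1e stayed negative under all alternatives. Ces2a ran from -0.554 to -0.521 in MSM and from -0.455 to -0.427 in B6-Chr8MSM, and Ces1g from -0.220 to -0.193 in MSM and from -0.281 to -0.242 in B6-Chr8MSM. With the 120 arrays fitted singly and the male as a random block, 14 of the 243 comparisons in the other strains were called, 9 of 9 probe sets passed the F test and 5 were called in B6-Chr8MSM, among them Ces1f as higher. That fit assumes a single correlation of 0.179 between the arrays of a male, whereas in the 9 probe sets this correlation was 0.721 to 0.943. The F test called 0 probe sets when either B6 male was left out, and, as alternatives chosen after seeing the data, 0 without B6-Chr9MSM male 1 and 0 without that strain (Ces1g adjusted p = 0.0598). A fit on B6-Chr8MSM and B6 alone called 0 of the 9. With the mean of the 27 other strains in place of B6, Ces1f was called higher in B6-Chr8MSM. The other 38 counts of calls stayed within 1.5 times the main count. No paired analysis was possible because the replicate numbers name different animals in each strain.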

Other observations

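Ces1g was the only member called by the F test over the 28 strains, and the genes most like it there were looked up after its values had been seen. Over those 28 strain means the highest Pearson correlations were with the glutathione transferases Gstt3 (0.830) and Gstt1 (0.815), 4931406C07Rik (0.821), Macrod1 (0.797) and Nsl1 (0.795), followed by the cytochrome P450 Cyp2c54 (0.785). The lowest were with Phc1 (-0.802), Camk2n2 (-0.754), Tspan31 (-0.744), Atp6v0b (-0.725) and Spin1 (-0.723). None of these lies on chromosome 8. Without male 1 of B6-Chr9MSM, 4 of the 5 highest and 2 of the 5 lowest were still among the first 5, with Gstt3 at 0.754, Gstt1 at 0.786 and Macrod1 at 0.603. The strain means share arrays and processing, and no test was made.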
